A study of Mus musculus with 12 samples.

Results

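Diethyl phthalate (DEP) is a phthalate ester found in plastics and, as a solvent, in fragrances. The response to it was compared between 2 mouse cell lines as an interaction, that is, the change with DEP in AML12 cells minus the change with DEP in iWAT cells. The comparison took in 11399 of the 32579 genes listed for either line, those with at least 0.5 FPKM (sequenced fragments scaled to exon length and library size) in at least 3 libraries of each line. Within it the account turns on genes that moved in opposite directions in the 2 lines, and above all on those well expressed in both, taken as a mean of at least 5 FPKM over the 6 libraries of each line. There were 206 genes with opposite changes, 178 of them well expressed.

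Total RNA was sequenced from 12 libraries in 4 groups of 3: AML12 cells with 50 µM DEP for 48 h, AML12 cells with DMSO, iWAT cells with 50 µM DEP for 48 h, and iWAT cells with DMSO. All cells had reached confluence before the exposure began. AML12 was labelled as hepatocytes and grown in DMEM/F12, and iWAT was labelled as adipocytes and grown in DMEM, so culture medium and cell line cannot be told apart. The controls were called DMSO in the sample titles, and their treatment field names the medium alone. Each line is a single established cell line, and replicates of a group were not said to be separate cultures, so p-values here measure only variation among these libraries, which may be technical.

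Several pathways in the results have well known controls. Cells short of sterol in the endoplasmic reticulum release the transcription factor SREBP2, which switches on the genes of cholesterol synthesis, and sterol excess holds it back. Genes of the G2 phase and mitosis share promoters with a cell cycle homology element, through which the MuvB complexes repress them in resting cells and activate them in dividing ones. Shortage of amino acids, endoplasmic reticulum stress or haem shortage leads to phosphorylation of eIF2 alpha and translation of ATF4, a transcription factor that raises amino acid transporters, aminoacyl-tRNA synthetases and stress regulators. The vacuolar ATPase is the many-subunit proton pump that acidifies lysosomes. Bulk RNA cannot tell a change in the number of cells of a type from a change in RNA per cell.

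Totals ran from 49249612 to 52915505 reads in AML12 DEP libraries, against 42845105 to 46232482 in AML12 DMSO libraries, and from 47735539 to 49059544 in iWAT DEP libraries, against 50035049 to 54585090 in iWAT DMSO libraries. Depth was thus higher with DEP in AML12 and lower with DEP in iWAT. With reads thinned to the smallest total, 3622 genes were called in the interaction and 182 had opposite changes. The labelled cell types were checked against marker genes. AML12 cells expressed the hepatocyte genes Hnf4a (109 FPKM with DEP, 88.5 FPKM with DMSO) and Alb (32.0 FPKM with DEP, 25.9 FPKM with DMSO), and also Trf, Ttr and Apob. Of the simple epithelium and bile duct markers, Krt8 (1520 FPKM with DEP, 1270 FPKM with DMSO), Krt18 and Krt19 (1002 FPKM with DEP, 1008 FPKM with DMSO) were high. Cdh1 averaged 53.8 FPKM with DEP and 51.7 FPKM with DMSO, and Epcam was not listed for either line. The hepatocyte gene Apoa1 was low (2.21 FPKM with DEP, 3.26 FPKM with DMSO). Cps1 (0.154 FPKM with DEP, 0.417 FPKM with DMSO) and Fga were near 0 in both groups. In iWAT cells the defining genes of mature fat cells were at or near 0: Adipoq averaged 0.0101 FPKM with DEP and 0.0184 FPKM with DMSO, and Lep was not listed. Pparg and Lpl were present, with the mesenchymal genes Col1a1, Pdgfrb and Acta2, so the iWAT cells are called by their line name below.

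The interaction was tested with limma, a linear model fitted to log2(FPKM + 1) of all 12 libraries across the 11399 genes. Its two-sided p-values were corrected over these genes by Benjamini-Hochberg, and calls were made where the adjusted p was below 0.05. A positive interaction means that the change with DEP was higher, or less negative, in AML12 than in iWAT. The interaction was called for 3679 genes (32.3%), with 2243 (19.7%) higher and 1436 (12.6%) lower in AML12. Of the same 11399 genes, DEP changed 4563 (40.0%) in AML12, 2856 (25.1%) up and 1707 (15.0%) down, and 946 (8.30%) in iWAT, 502 (4.40%) up and 444 (3.90%) down. Both tables had been normalized separately, and each line's own call came from a fit within that line.

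DEP moved 512 genes in both lines by these calls. Their direction was shared for 306 (182 up in both, 124 down in both) and opposed for 206, which is 40.2% of the 512. Unrelated responses in the 2 lines would also give genes of both kinds. Whether 40.2% differs from the share they would give was not tested. Opposite changes made up 1.81% of all tested genes, with 116 genes (1.02%) up in AML12 and down in iWAT and 90 (0.790%) down in AML12 and up in iWAT. Among the 6279 well-expressed genes the count was 178 (2.83%), 96 of the first kind and 82 of the second. Every one of the 206 was also called in the interaction, and in every one the 3 DEP libraries did not overlap the 3 DMSO libraries in either line, a separation that 18.7% of all tested genes showed. These calls define the opposite genes, so their fold changes and p-values below describe genes chosen by them.

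The remaining calls in the interaction were mostly changes in AML12 alone. They comprised 2705 genes called in AML12 only, 261 in iWAT only, 105 called in both with the same sign but unequal size, and 402 called in neither line by itself. Across all 11399 genes the changes in the lines were nearly unrelated, with Pearson's r = 0.0192 and Spearman's rho = 0.0427 as descriptions across genes within separately scaled tables.

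**Figure D1:**
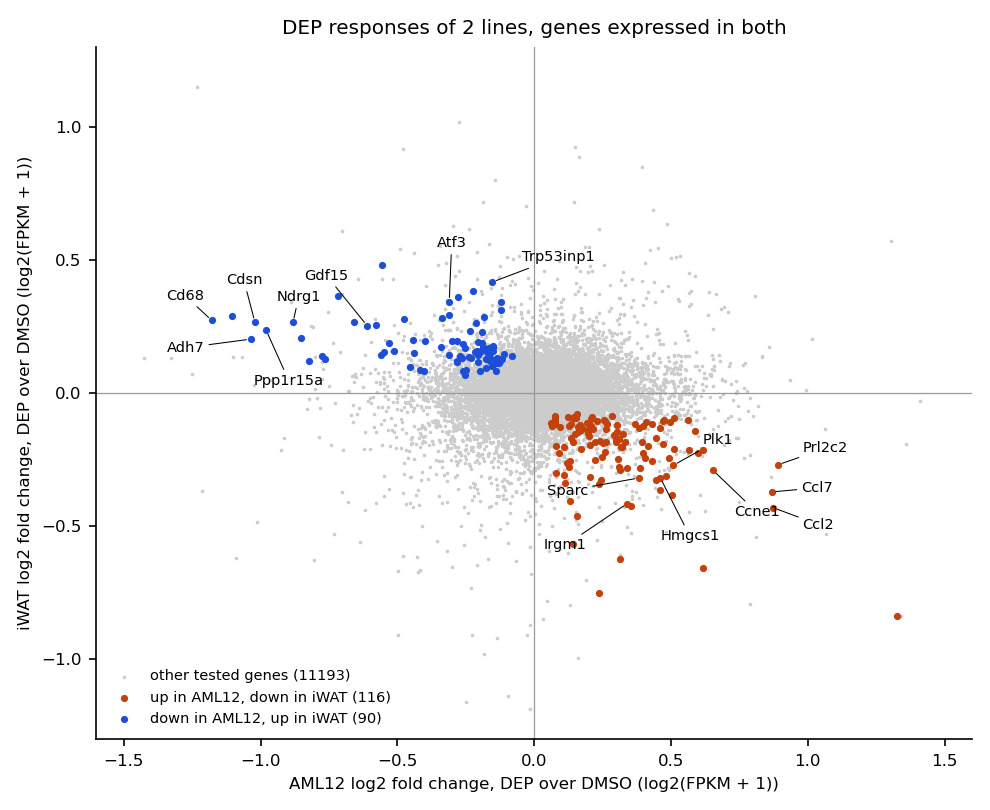
Change with DEP in AML12 cells (x axis) against change with DEP in iWAT cells (y axis), both as log2 fold changes of FPKM + 1, for the 11399 tested genes. The 116 genes up in AML12 and down in iWAT lie in the lower right, the 90 genes down in AML12 and up in iWAT lie in the upper left, and 5 points fall outside the axes.

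Most opposite changes were small. The smaller of a gene's 2 absolute log2 fold changes had a median of 0.148 for genes up in AML12 and down in iWAT and 0.153 for genes of the reverse pattern. At least 1.25-fold in both lines, counted on FPKM + 1, was reached by 11 genes, among them Ccl2, Ccl7, Irgm1, Plau, Steap4, Vgll3 and Prr32. Ratios of FPKM itself are larger, so further genes reach 1.25-fold by FPKM. The change was larger in AML12 for 84 of 116 genes (72.4%) and for 72 of 90 (80%), near the 68.8% over all tested genes.

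The count rested on the iWAT libraries. Without iWAT DEP replicate 1, 2 or 3 it was 126, 99 or 105 genes, and without iWAT DMSO replicate 1, 2 or 3 it was 109, 97 or 81 genes. Leaving out single AML12 libraries gave 183 to 195 genes. Each such count, here and for the lists below, is a new total that can include genes not opposite with all libraries. The opposite class held under all 12 such omissions for 31 of the 116 genes and 25 of the 90, and 28 and 22 of these were well expressed. For the main genes described below whose call in a line was lost in this way, the libraries are given, written as line, group and replicate number (iWAT DEP 2).

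The chemokines Ccl2 and Ccl7, which draw monocytes to tissue, had the 2 highest interactions among named well-expressed genes, rising in AML12 and falling in iWAT. Ccl2 had 378, 383 and 362 FPKM in AML12 DEP libraries, against 203, 205 and 204 FPKM in AML12 DMSO libraries. The iWAT counterpart was 357, 367 and 343 FPKM in iWAT DEP libraries, against 476, 477 and 485 FPKM in iWAT DMSO libraries. In the separately scaled tables the iWAT values were the higher with DMSO, and with DEP the values of the 2 lines overlapped. The log2 fold change was 0.87 ± 0.02 (SE) in AML12 and -0.43 ± 0.03 in iWAT, with an interaction of 1.30 ± 0.04 (limma adjusted p = 1.84e-08).

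Ccl7 lies beside Ccl2 in the mouse chemokine cluster and moved by nearly the same amounts from a lower level in AML12. It had 30.6, 29.1 and 31 FPKM in AML12 DEP libraries, against 16.5, 16 and 15.8 FPKM in AML12 DMSO libraries. The iWAT values were 308, 311 and 324 FPKM in iWAT DEP libraries, against 407, 411 and 403 FPKM in iWAT DMSO libraries. DEP libraries stood above all DMSO libraries in AML12 and below all of them in iWAT, with log2 fold changes of 0.87 ± 0.03 and -0.37 ± 0.02 and an interaction of 1.24 ± 0.04 (limma adjusted p = 2.31e-08). Cxcl1, a chemokine for neutrophils, had log2 fold changes of 0.16 ± 0.02 in AML12 and -0.46 ± 0.02 in iWAT. It averaged 83.1 ± 0.626 FPKM in AML12 DEP cells and 74.5 ± 0.635 FPKM in AML12 DMSO cells (SD, n = 3 each), and 71 ± 0.93 FPKM in iWAT DEP cells and 98.1 ± 2.77 FPKM in iWAT DMSO cells, with an interaction of 0.62 ± 0.03 (limma adjusted p = 1.91e-07). All 3 kept both within-line calls without any single library.

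The directions of these chemokines were not those of every inflammatory gene. In a list of 17 tested genes of inflammation and NF-kB, 8 had a higher and 5 a lower interaction and 3 were opposite. Over all tested genes 19.7% had a higher and 12.6% a lower interaction. In AML12, 7 rose and 8 fell, against 25.1% and 15.0% of all tested genes. In iWAT 1 rose and 8 fell, against 4.40% and 3.90%. Median log2 fold changes were -0.11 in AML12 and -0.19 in iWAT, against 0.03 and 0.01 over all tested genes. Of 5 leukocyte markers, Cd68 was expressed in both lines and is described with the reverse class. Ptprc, Adgre1 and Cd3e averaged at most 0.0174 FPKM in any AML12 group and were not listed for iWAT, and Cd79a averaged at most 0.149 FPKM in any group. Spp1, which encodes the secreted phosphoprotein osteopontin, shared the chemokines' directions at a higher level. It averaged 743 ± 4.01 FPKM in AML12 DEP cells and 568 ± 10.4 FPKM in AML12 DMSO cells and 493 ± 4.91 FPKM in iWAT DEP cells and 599 ± 4.1 FPKM in iWAT DMSO cells, with an interaction of 0.67 ± 0.02 (limma adjusted p = 4.02e-08). Prl2c2, a prolactin family hormone also called proliferin, averaged 17.8 ± 2.14 FPKM in AML12 DEP cells and 9.12 ± 0.353 FPKM in AML12 DMSO cells and 86.5 ± 4.79 FPKM in iWAT DEP cells and 104 ± 0.342 FPKM in iWAT DMSO cells. Its interaction was 1.16 ± 0.09 (limma adjusted p = 6.7e-06), and since the gene has near-identical neighbours its reads may have been shared with them.

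**Figure D2:**
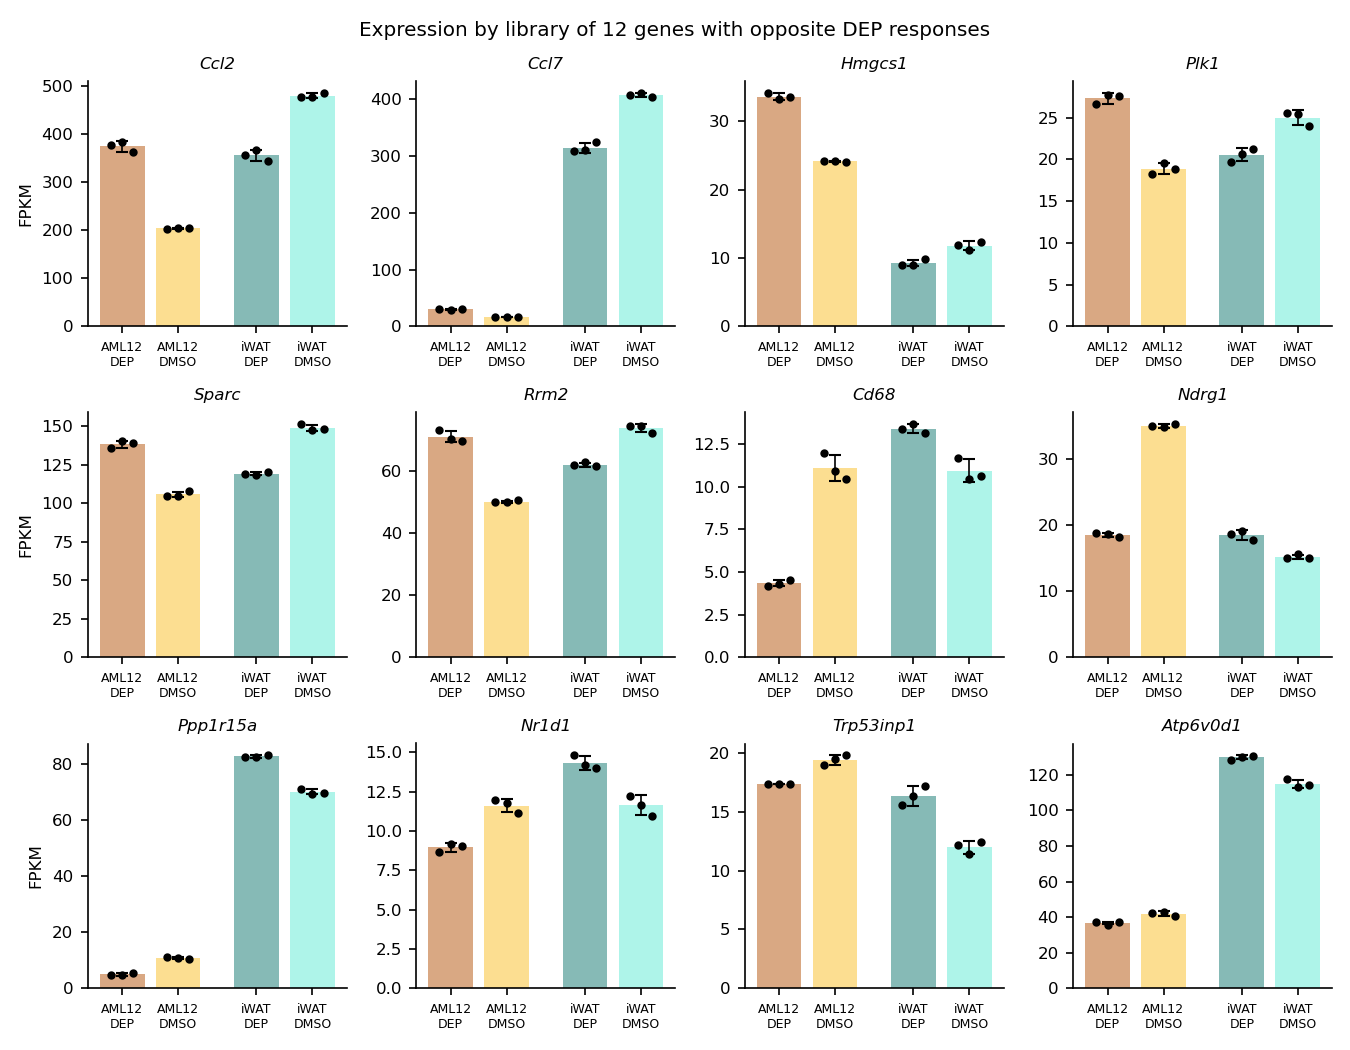
Levels in FPKM (y axes, linear from 0) of 12 genes in AML12 DEP, AML12 DMSO, iWAT DEP and iWAT DMSO libraries (x axes), with bars for the mean of 3 libraries, error bars for the SD and points for single libraries. In Ccl2 the DEP points stand above the DMSO points in AML12 (362 to 383 against 203 to 205 FPKM) and below them in iWAT (343 to 367 against 476 to 485 FPKM).

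Of the gene lists examined, cholesterol synthesis and uptake and the G2 phase and mitosis held the most opposite genes, 8 each. Of 23 tested genes of cholesterol synthesis and uptake, 20 rose and none fell in AML12, against 25.1% and 15.0% of all tested genes. In iWAT 8 fell and 1 rose, against 3.90% and 4.40%. The interaction was higher in AML12 for 16 and lower for none, against 19.7% and 12.6% of all tested genes. All 8 that fell in iWAT had risen in AML12, and they ran along the pathway: Hmgcs1, Idi1, Fdft1, Sqle, Cyp51 and Msmo1 encode enzymes, and Insig1 and Stard4 encode a sterol-regulated anchor of SREBP and a sterol transfer protein. The median log2 fold change of the list was 0.34 in AML12 and -0.11 in iWAT.

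Msmo1, a sterol methyl oxidase that removes methyl groups from sterol precursors, kept both calls without any single library. It had 33.6, 33.7 and 33.8 FPKM in AML12 DEP libraries, against 26.7, 27.4 and 26.6 FPKM in AML12 DMSO libraries. In iWAT the values were 14.5, 14.8 and 14.5 FPKM in iWAT DEP libraries, against 18.1, 17.9 and 18.2 FPKM in iWAT DMSO libraries. The groups were separated in both lines, with log2 fold changes of 0.32 ± 0.02 and -0.29 ± 0.02 and an interaction of 0.61 ± 0.03 (limma adjusted p = 1.1e-07).

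Hmgcs1, the synthase that makes HMG-CoA, had 34.1, 33.2 and 33.5 FPKM in AML12 DEP libraries, against 24.2, 24.2 and 24 FPKM in AML12 DMSO libraries. Its iWAT values were 8.99, 8.96 and 9.84 FPKM in iWAT DEP libraries, against 11.8, 11.1 and 12.4 FPKM in iWAT DMSO libraries. Each DEP library of AML12 stood above each DMSO library, and each DEP library of iWAT stood below. Log2 fold changes were 0.46 ± 0.02 and -0.32 ± 0.05, and the interaction was 0.78 ± 0.06 (limma adjusted p = 2.8e-06). Sqle, the squalene epoxidase at the start of sterol ring formation, had log2 fold changes of 0.24 ± 0.03 in AML12 and -0.33 ± 0.03 in iWAT. It averaged 38.3 ± 0.754 FPKM in AML12 DEP cells and 32.2 ± 1.08 FPKM in AML12 DMSO cells and 11.1 ± 0.452 FPKM in iWAT DEP cells and 14.1 ± 0.127 FPKM in iWAT DMSO cells, and its interaction was 0.57 ± 0.04 (limma adjusted p = 5.56e-06).

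The isomerase Idi1 averaged 11.6 ± 0.321 FPKM in AML12 DEP cells and 8.0 ± 0.326 FPKM in AML12 DMSO cells and 4.57 ± 0.215 FPKM in iWAT DEP cells and 5.91 ± 0.377 FPKM in iWAT DMSO cells, with an interaction of 0.79 ± 0.06 (limma adjusted p = 7.1e-06). Stard4, Cyp51, Insig1 and Fdft1 had interactions of 0.82, 0.78, 0.66 and 0.48 on the log2 scale. Mvd, a decarboxylase of the same pathway, was the one member that rose in iWAT as well, with log2 fold changes of 0.33 ± 0.04 in AML12 and 0.20 ± 0.05 in iWAT.

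Soat2, which esterifies cholesterol for storage, moved the other way and lay just under the level taken as well expressed. It had 13.4, 14.5 and 15.2 FPKM in AML12 DEP libraries, against 18.2, 16.2 and 18.4 FPKM in AML12 DMSO libraries. The iWAT values were 5.47, 5.25 and 5.54 FPKM in iWAT DEP libraries, against 3.69, 4.26 and 4.07 FPKM in iWAT DMSO libraries. DEP libraries were the lower ones in AML12 and the higher ones in iWAT, with log2 fold changes of -0.28 ± 0.06 and 0.36 ± 0.05 and an interaction of -0.64 ± 0.08 (limma adjusted p = 0.000181). It is in no list and was picked out after its values were seen.

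Without iWAT DEP 1, 2 or 3 the opposite genes of the cholesterol list numbered 7, 6 or 5, and without iWAT DMSO 1, 2 or 3 they numbered 6, 7 or 6, while omission of any AML12 library left 8. The iWAT call was lost for Cyp51 without iWAT DEP 3, iWAT DMSO 2 or iWAT DMSO 3 (limma adjusted p up to 0.0551). For Idi1 it was lost without iWAT DEP 2 or 3 or iWAT DMSO 1 or 3 (limma adjusted p up to 0.0588). Fdft1 lost it without any iWAT library except iWAT DMSO 2 (limma adjusted p up to 0.0731).

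The Hmgcs1 promoter is shown because it carries a copy of the SREBP element searched for (TCACNCCAC, on either strand), marked in capitals, 137 bases before the start (RefSeq, GRCm38.p6, chr13:119690101-119690400, plus strand, from 250 bases before to 50 after the start).
Hmgcs1: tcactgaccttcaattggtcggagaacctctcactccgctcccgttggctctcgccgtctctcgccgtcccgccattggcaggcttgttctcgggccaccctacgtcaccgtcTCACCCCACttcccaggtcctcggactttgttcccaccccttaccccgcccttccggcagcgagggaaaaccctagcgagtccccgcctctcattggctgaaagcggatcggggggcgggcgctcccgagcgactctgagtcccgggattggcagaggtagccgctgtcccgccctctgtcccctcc
Promoters of this extent were available for 5 of the 8 opposite cholesterol genes. The element was in 1 of these 5 and in 1.16% of the 10190 promoters of tested genes, and the CCAAT box (CCAAT, either strand), which many promoters share, was in all 5 and in 38.5%. In the 20 promoters available for the whole list, the SREBP element was in 5% and the CCAAT box in 80%. Matches of different motifs were counted separately, also where they overlapped.

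Fatty acid synthesis held fewer opposite genes. Of 18 tested genes of fatty acid and triglyceride synthesis, 12 rose and 5 fell in AML12, against 25.1% and 15.0% of all tested genes. In iWAT 1 rose and 5 fell, against 4.40% and 3.90%. The interaction was higher for 11 and lower for 2, against 19.7% and 12.6% of all tested genes, and 4 were opposite. The count of 2 lower was 1 to 4 under the alternative settings. Scd2, a desaturase that makes monounsaturated fatty acids, had 533, 541 and 540.2 FPKM in AML12 DEP libraries, against 411, 400.2 and 408 FPKM in AML12 DMSO libraries. The 6 iWAT libraries gave 87.3, 88.6 and 89.3 FPKM in iWAT DEP libraries, against 104, 105 and 106 FPKM in iWAT DMSO libraries. The groups were far apart in AML12 and also apart in iWAT, with log2 fold changes of 0.40 ± 0.02 and -0.25 ± 0.02 and an interaction of 0.65 ± 0.02 (limma adjusted p = 4.02e-08).

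Fads2, the delta-6 desaturase of polyunsaturated fatty acid synthesis, averaged 109 ± 2.03 FPKM in AML12 DEP cells and 76.2 ± 1.82 FPKM in AML12 DMSO cells and 24.6 ± 0.0649 FPKM in iWAT DEP cells and 28.5 ± 0.947 FPKM in iWAT DMSO cells, with an interaction of 0.72 ± 0.04 (limma adjusted p = 2.82e-07). The elongase Elovl6 and the citrate carrier Slc25a1 had interactions of 0.69 and 0.19. Elovl6 lost its iWAT call without any iWAT library except iWAT DMSO 1 (limma adjusted p up to 0.102). Slc25a1 lost 1 of its 2 calls in 10 of 12 omissions, with only AML12 DEP 1 and iWAT DMSO 2 dispensable. Plin2, which coats lipid droplets, had 61.4, 58.5 and 61.9 FPKM in AML12 DEP libraries, against 49.97, 51.6 and 51.2 FPKM in AML12 DMSO libraries. The iWAT libraries had 51.1, 48.1 and 46.8 FPKM in iWAT DEP libraries, against 57.3, 56 and 59.5 FPKM in iWAT DMSO libraries. DEP was the higher group in AML12 and the lower in iWAT without overlap, and the interaction was 0.49 ± 0.05 (limma adjusted p = 3.33e-05). Angptl4, a secreted inhibitor of lipoprotein lipase and a PPAR target like Plin2, averaged 6.61 ± 0.115 FPKM in AML12 DEP cells and 5.9 ± 0.283 FPKM in AML12 DMSO cells and 3.14 ± 0.291 FPKM in iWAT DEP cells and 5.12 ± 0.151 FPKM in iWAT DMSO cells. Its rise in AML12 of 0.14 ± 0.04 lost its call without any AML12 library except AML12 DMSO 3 (limma adjusted p up to 0.0789), while the iWAT change of -0.57 ± 0.06 kept its call.

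Genes of the G2 phase and mitosis all had a higher interaction, 26 of 26 tested, against 19.7% of all tested genes. In AML12, 25 rose and none fell, against 25.1% and 15.0% of all tested genes. In iWAT, 9 fell and none rose, against 3.90% and 4.40%. Of the 9, 8 were opposite: Plk1, Bub1, Kif11, Ccna2, Bub1b, Top2a, Ccnb2 and Ccnb1. The median log2 fold change was 0.40 in AML12 and -0.10 in iWAT. Both lines had been confluent when exposure began.

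Plk1, the kinase that drives entry into and passage through mitosis, had 26.6, 27.7 and 27.6 FPKM in AML12 DEP libraries, against 18.3, 19.5 and 18.9 FPKM in AML12 DMSO libraries. The iWAT libraries had 19.7, 20.7 and 21.3 FPKM in iWAT DEP libraries, against 25.6, 25.5 and 24 FPKM in iWAT DMSO libraries. In the separately scaled tables the iWAT values were the higher with DMSO and the AML12 values with DEP, without a test between lines. The log2 fold change was 0.51 ± 0.03 in AML12 and -0.27 ± 0.04 in iWAT, with an interaction of 0.78 ± 0.05 (limma adjusted p = 1.36e-06).

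Bub1, a kinase of the spindle checkpoint, averaged 12.5 ± 0.268 FPKM in AML12 DEP cells and 8.0 ± 0.359 FPKM in AML12 DMSO cells and 21.6 ± 0.797 FPKM in iWAT DEP cells and 24 ± 0.57 FPKM in iWAT DMSO cells, with an interaction of 0.73 ± 0.05 (limma adjusted p = 2.11e-06). Ccnb2, a mitotic cyclin, had the larger change in iWAT. It averaged 37 ± 0.716 FPKM in AML12 DEP cells and 33.9 ± 1.69 FPKM in AML12 DMSO cells and 42.5 ± 1.1 FPKM in iWAT DEP cells and 51.2 ± 2.06 FPKM in iWAT DMSO cells, with log2 fold changes of 0.12 ± 0.04 and -0.26 ± 0.03. Kif11 (a spindle motor), Ccna2, Bub1b, Top2a (topoisomerase II alpha) and Ccnb1 rose by 0.25 to 0.56 on the log2 scale in AML12 and had log2 fold changes of -0.11 to -0.09 in iWAT. Some mitotic genes outside the list, picked out after their values were seen, had the same pattern. Kif2c, Cdca3, Hmmr and Pttg1, all of which lost the iWAT call without 5 or 6 of the iWAT libraries, had interactions of 0.61, 0.60, 0.59 and 0.42. Not all did: Psrc1, which encodes a spindle protein, was down in AML12 and up in iWAT.

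Apart from Plk1, the mitotic genes did not keep both calls under every omission. The list's opposite genes numbered 4, 2 or 2 without iWAT DEP 1, 2 or 3 and 4, 2 or 2 without iWAT DMSO 1, 2 or 3, and 7 or 8 without single AML12 libraries. Such totals can include list members that were not opposite with all libraries. Bub1, Ccna2, Kif11 and Bub1b lost the iWAT call without any of the 6 iWAT libraries, with adjusted p up to 0.129, 0.125, 0.118 and 0.124 by limma. Top2a lost it without iWAT DEP 2 or 3 or iWAT DMSO 2 or 3 (limma adjusted p up to 0.0689), and Ccnb1 without any but iWAT DMSO 1 (limma adjusted p up to 0.0824). Ccnb2 kept the iWAT call and lost the AML12 call without any AML12 library except AML12 DMSO 1 (limma adjusted p up to 0.12). The interaction of Plk1 and of Bub1 stayed called under every alternative.

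The promoters of Plk1, Ccnb2 and Bub1b are shown for the cell cycle homology element (TTTGAA or TTCGAA, on either strand), in capitals (RefSeq, GRCm38.p6; Plk1 chr7:122159185-122159484, plus strand; Ccnb2 chr9:70421505-70421804, minus strand; Bub1b chr2:118597961-118598260, plus strand; each read along the gene's strand).
Plk1: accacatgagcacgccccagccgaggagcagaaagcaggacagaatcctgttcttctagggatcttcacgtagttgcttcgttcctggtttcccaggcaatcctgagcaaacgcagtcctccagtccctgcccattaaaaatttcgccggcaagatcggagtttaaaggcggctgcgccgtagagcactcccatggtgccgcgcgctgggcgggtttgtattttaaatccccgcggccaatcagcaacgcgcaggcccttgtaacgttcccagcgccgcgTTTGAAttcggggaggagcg
Ccnb2: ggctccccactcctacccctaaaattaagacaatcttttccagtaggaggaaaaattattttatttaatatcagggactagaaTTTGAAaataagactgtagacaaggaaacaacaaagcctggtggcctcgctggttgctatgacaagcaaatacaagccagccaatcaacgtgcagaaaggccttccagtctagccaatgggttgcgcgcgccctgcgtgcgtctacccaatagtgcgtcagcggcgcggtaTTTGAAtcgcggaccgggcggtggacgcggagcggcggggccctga
Bub1b: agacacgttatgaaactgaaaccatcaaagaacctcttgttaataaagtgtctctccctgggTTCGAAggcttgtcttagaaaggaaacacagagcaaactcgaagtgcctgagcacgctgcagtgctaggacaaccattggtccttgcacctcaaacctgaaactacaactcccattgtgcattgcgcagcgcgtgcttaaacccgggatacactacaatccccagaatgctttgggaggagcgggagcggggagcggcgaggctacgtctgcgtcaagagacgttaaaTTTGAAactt
Plk1 holds 1 copy within the 50 bases after its start, and Ccnb2 and Bub1b hold 2 copies each. The element was in 6 of the 7 promoters available for opposite mitotic genes (85.7%), in 77.3% of the 22 of the whole mitosis list and in 13.7% of all 10190. The CCAAT box was in all 7. Over all genes up in AML12 and down in iWAT, 26.8% of 97 promoters held the homology element, against 16.2% of 80 promoters of the reverse class.

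Nearly all genes of DNA replication and S phase rose in AML12, and 1 was opposite. Of 27 tested, 26 had a higher interaction, against 19.7% of all tested genes. In AML12 26 rose, against 25.1% of all tested genes, and in iWAT 6 rose and 1 fell, against 4.40% and 3.90%, so that the median log2 fold change was 0.57 in AML12 and 0.04 in iWAT. The 1 that fell was Rrm2, the subunit of ribonucleotide reductase that varies through the cell cycle. It had 73.2, 70.6 and 69.8 FPKM in AML12 DEP libraries, against 50.03, 50.1 and 50.6 FPKM in AML12 DMSO libraries. iWAT cells gave 62, 62.9 and 61.7 FPKM in iWAT DEP libraries, against 74.7, 74.7 and 72.4 FPKM in iWAT DMSO libraries. The log2 fold changes were 0.49 ± 0.02 in AML12 and -0.25 ± 0.02 in iWAT, with an interaction of 0.74 ± 0.03 (limma adjusted p = 6.36e-08).

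Ccne1, the cyclin E that drives entry into S phase and is outside that list, was opposite too. It had 7.24, 6.76 and 6.71 FPKM in AML12 DEP libraries, against 4.13, 3.5 and 4.49 FPKM in AML12 DMSO libraries. The iWAT libraries had 15.3, 14.9 and 13.8 FPKM in iWAT DEP libraries, against 17.8, 18.2 and 18.4 FPKM in iWAT DMSO libraries. The groups did not overlap in either line, and the interaction was 0.94 ± 0.09 (limma adjusted p = 2.04e-05). Tuba1a, an alpha tubulin, had one of the 5 highest interactions among well-expressed genes without being opposite. It averaged 60.6 ± 3.45 FPKM in AML12 DEP cells and 29.9 ± 0.524 FPKM in AML12 DMSO cells, and 104 ± 1.54 FPKM in iWAT DEP cells and 103 ± 2.71 FPKM in iWAT DMSO cells, with an interaction of 0.98 ± 0.05 (limma adjusted p = 2.86e-07). Its iWAT log2 fold change was 0.01 ± 0.02 (limma adjusted p = 0.841).

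**Figure D3:**
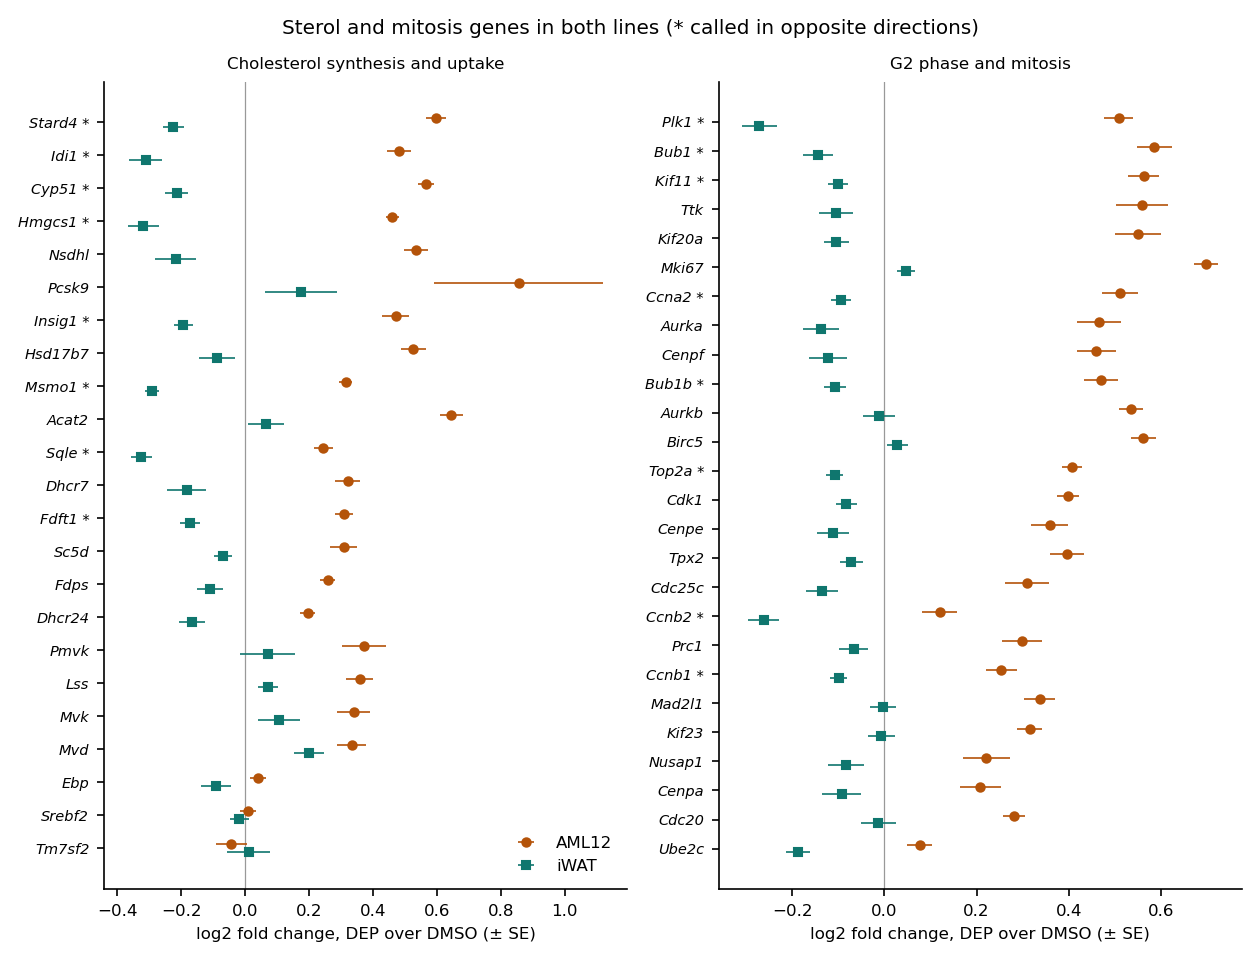
Log2 fold changes of FPKM + 1 with DEP (x axes, ± SE) in AML12 and iWAT for every tested gene of cholesterol synthesis and uptake (23) and of the G2 phase and mitosis (26), one gene per row, with * for opposite genes. Nearly all AML12 points lie right of 0, and the iWAT points of the marked genes, 8 in each list, lie left of 0.

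Secreted matrix proteins were mixed in AML12. Of 13 tested genes of extracellular matrix and TGF beta response, 6 rose and 5 fell in AML12, against 25.1% and 15.0% of all tested genes. In iWAT 7 fell and none rose, against 3.90% and 4.40%. The interaction was higher for 7, or 15 or 16 with looser filters on low values, and lower for 4. Over all tested genes 19.7% were higher and 12.6% lower. Sparc, Thbs1, Ccn1 and Col6a1 were opposite. Sparc, a collagen-binding matrix glycoprotein, had 136, 140.2 and 139 FPKM in AML12 DEP libraries, against 105, 105 and 108 FPKM in AML12 DMSO libraries. Levels in iWAT were 119, 118 and 120.1 FPKM in iWAT DEP libraries, against 151, 148 and 148 FPKM in iWAT DMSO libraries. With DMSO the iWAT values were the higher and with DEP the AML12 values were, in separately scaled tables and without a test between lines. The interaction was 0.70 ± 0.03 (limma adjusted p = 4.28e-08), from log2 fold changes of 0.38 ± 0.02 and -0.32 ± 0.02.

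Thbs1, the matricellular protein thrombospondin 1, had 51.2, 53 and 52.9 FPKM in AML12 DEP libraries, against 44.3, 43.3 and 45.1 FPKM in AML12 DMSO libraries. In the iWAT line there were 37.6, 38.9 and 38.1 FPKM in iWAT DEP libraries, against 49, 48.8 and 48.3 FPKM in iWAT DMSO libraries. It rose by less in AML12 (0.24 ± 0.02) than it fell in iWAT (-0.34 ± 0.02), and the interaction was 0.58 ± 0.03 (limma adjusted p = 3.46e-07). Igfbp7, a secreted insulin-like growth factor binding protein outside the list, averaged 428 ± 2.43 FPKM in AML12 DEP cells and 372 ± 5.57 FPKM in AML12 DMSO cells and 139 ± 1.34 FPKM in iWAT DEP cells and 173 ± 2.4 FPKM in iWAT DMSO cells, with an interaction of 0.52 ± 0.02 (limma adjusted p = 1.65e-07). Serpinh1, the collagen chaperone, and Pcolce, which enhances procollagen cleavage, had interactions of 0.19 and 0.32, and these 3 were picked out after their values were seen. The opposite matrix genes numbered 2 or 3 without single AML12 libraries and 4 or 5 without single iWAT libraries. They numbered 2 without AML12 DEP 3, AML12 DMSO 2 or AML12 DMSO 3, and Sparc and Thbs1 kept both calls throughout. Ccn1 lost its AML12 call without any AML12 library except AML12 DEP 1 (limma adjusted p up to 0.115), and Col6a1 without AML12 DEP 1 or 3 or AML12 DMSO 2 or 3 (limma adjusted p up to 0.102).

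Mesenchymal markers were also lower with DEP in iWAT. The summed level of 8 markers of adipose progenitors and fibroblasts was 150 to 154 FPKM in iWAT DEP libraries, against 201 to 206 FPKM in iWAT DMSO libraries, with Dpp4 at most 0.0133 FPKM in any library. The sum of 3 smooth muscle markers was 90.1 to 98.0 FPKM with DEP, against 128 to 132 FPKM with DMSO, nearly all of it Acta2. In AML12 the same sums were 13.2 to 14.2 FPKM with DEP, against 18.72 to 20.02 FPKM with DMSO, for the progenitor list, nearly all of it Ly6a, and below 0.1 FPKM for smooth muscle. Of the other progenitor markers in AML12, Thy1 was not listed, and Col1a1 averaged 0.307 FPKM with DEP and 0.213 FPKM with DMSO. Their part in the changes of matrix genes was not tested.

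Plasminogen activation gave opposite signs to a protease and its receptor. Plau, the urokinase plasminogen activator, had 7.98, 6.38 and 6.88 FPKM in AML12 DEP libraries, against 5.02, 4.51 and 5.24 FPKM in AML12 DMSO libraries. In the iWAT line there were 13.5, 12.3 and 12.1 FPKM in iWAT DEP libraries, against 15, 16.9 and 16.4 FPKM in iWAT DMSO libraries. The DEP libraries were higher in AML12 and lower in iWAT, with an interaction of 0.77 ± 0.11 (limma adjusted p = 0.000259). Plaur, the surface receptor that binds it, had 77.7, 82.7 and 80.8 FPKM in AML12 DEP libraries, against 92.8, 94.2 and 92.6 FPKM in AML12 DMSO libraries. Its iWAT values were 18.4, 18.2 and 18.6 FPKM in iWAT DEP libraries, against 16.2, 14.6 and 14.7 FPKM in iWAT DMSO libraries. Here DEP was the lower group in AML12 and the higher in iWAT, with an interaction of -0.48 ± 0.05 (limma adjusted p = 4e-05). Plau lost its iWAT call without iWAT DEP 2 or 3 or iWAT DMSO 2 or 3 (limma adjusted p up to 0.063), whereas Plaur, picked out after its values were seen, kept both. Inhba, the activin A subunit, averaged 7.07 ± 0.428 FPKM in AML12 DEP cells and 5.38 ± 0.55 FPKM in AML12 DMSO cells and 7.6 ± 0.454 FPKM in iWAT DEP cells and 9.45 ± 0.24 FPKM in iWAT DMSO cells, with an interaction of 0.62 ± 0.09 (limma adjusted p = 0.000365), and lost its iWAT call without iWAT DMSO 3 (limma adjusted p = 0.0519).

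Of 14 targets of the transcriptional coactivator YAP and its partner TEAD, 11 had a higher and 1 a lower interaction. Over all tested genes 19.7% were higher and 12.6% lower. Ankrd1, Amotl2 and Ccn1 were opposite. Ankrd1, an ankyrin repeat protein, averaged 115 ± 2.23 FPKM in AML12 DEP cells and 87.3 ± 1.76 FPKM in AML12 DMSO cells and 18.1 ± 0.743 FPKM in iWAT DEP cells and 20.7 ± 0.738 FPKM in iWAT DMSO cells, with an interaction of 0.58 ± 0.05 (limma adjusted p = 6.44e-06). Amotl2, which binds YAP, had log2 fold changes of 0.17 ± 0.03 and -0.14 ± 0.03 and an interaction of 0.31 ± 0.04 (limma adjusted p = 0.000279). The list's count of opposite genes was 1 without iWAT DMSO 1, 2 or 3 and 2 or 3 in the other omissions. Ankrd1 lost its iWAT call without any iWAT library but iWAT DEP 3 (limma adjusted p up to 0.0952), and Amotl2 without iWAT DEP 3 or iWAT DMSO 1, 2 or 3 (limma adjusted p up to 0.0869).

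Among 12 tested contractile and cytoskeletal genes, 10 had a higher interaction and none a lower one, against 19.7% and 12.6% of all tested genes. Actb, Cald1 and Tpm4 were opposite. Under 6 alternatives, centring on the library median among them, 1 was lower. Actb, the cytoplasmic beta actin often used as a reference transcript, averaged 939.8 ± 30.2 FPKM in AML12 DEP cells and 846 ± 15.2 FPKM in AML12 DMSO cells and 731 ± 5.42 FPKM in iWAT DEP cells and 780.2 ± 13 FPKM in iWAT DMSO cells, with an interaction of 0.25 ± 0.03 (limma adjusted p = 0.000339). Cald1, the actin-binding protein caldesmon, had log2 fold changes of 0.15 ± 0.02 and -0.15 ± 0.03 and an interaction of 0.30 ± 0.03 (limma adjusted p = 6.32e-05). The opposite count was 2, 1 or 1 without iWAT DEP 1, 2 or 3 and 0, 1 or 0 without iWAT DMSO 1, 2 or 3. Actb lost its iWAT call without any iWAT library except iWAT DEP 1 (limma adjusted p up to 0.114), and Cald1 lost it without iWAT DMSO 1 or 3 (limma adjusted p up to 0.065).

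Irgm1, an interferon-induced GTPase that acts in the defence of cells against intracellular pathogens, was opposite. It had 17.1, 17.2 and 18.1 FPKM in AML12 DEP libraries, against 13.4, 13.6 and 13.8 FPKM in AML12 DMSO libraries. In iWAT it had 27.3, 26.8 and 27.5 FPKM in iWAT DEP libraries, against 37.1, 36.3 and 36.5 FPKM in iWAT DMSO libraries. DEP libraries were all higher in AML12 and all lower in iWAT, with log2 fold changes of 0.34 ± 0.03 and -0.42 ± 0.02, an interaction of 0.75 ± 0.03 (limma adjusted p = 1.4e-07), and both calls kept without any library. Of 12 tested interferon response genes, a list without Irgm1, none was opposite. In AML12 5 fell and in iWAT 11 fell, against 15.0% and 3.90% of all tested genes, and none rose in either. A higher interaction was called for 6, against 19.7%. Outside the list, the interferon-induced genes Ifi47, Eif2ak2 and Samhd1, picked out after their values were seen, were opposite in the same directions as Irgm1. With looser filters on low values, which admit genes that AML12 barely expressed, 25 or 26 had a higher interaction.

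Genes that act on RNA also held opposite members. Of 27 splicing factors, 18 had a higher and none a lower interaction (2 lower with centring on the library median), and 21 rose in AML12. Over all tested genes 19.7% were higher and 12.6% lower, and 25.1% rose in AML12. Hnrnpa2b1, an RNA-binding protein of splicing and transport, averaged 138 ± 0.629 FPKM in AML12 DEP cells and 113 ± 0.422 FPKM in AML12 DMSO cells and 161 ± 1.15 FPKM in iWAT DEP cells and 171 ± 2.77 FPKM in iWAT DMSO cells, with an interaction of 0.37 ± 0.02 (limma adjusted p = 8.24e-07). Srsf7, a serine and arginine rich splicing factor, had an interaction of 0.30 ± 0.04 (limma adjusted p = 0.000379). Hmgb2, a chromatin protein, averaged 39.4 ± 0.973 FPKM in AML12 DEP cells and 28.1 ± 0.347 FPKM in AML12 DMSO cells and 122 ± 0.963 FPKM in iWAT DEP cells and 131 ± 2.57 FPKM in iWAT DMSO cells, with an interaction of 0.57 ± 0.03 (limma adjusted p = 3.71e-07). All 3 lost the iWAT call in some omissions: Hnrnpa2b1 and Hmgb2 without any iWAT library except iWAT DMSO 1 (limma adjusted p up to 0.116 and 0.0832), and Srsf7 without iWAT DEP 2 or iWAT DMSO 2 or 3 (limma adjusted p up to 0.0756).

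Parts of the eIF4 translation initiation machinery were split. The cap-binding protein Eif4e, the helicase Eif4a1 and the scaffold relative Eif4g2 rose in AML12 and fell in iWAT, with interactions of 0.23, 0.34 and 0.25, while Eif4b, the helicase's cofactor, did the reverse, with an interaction of -0.32. Eif4b averaged 280.3 ± 0.539 FPKM in AML12 DEP cells and 334 ± 3.82 FPKM in AML12 DMSO cells and 184 ± 0.747 FPKM in iWAT DEP cells and 176 ± 1.5 FPKM in iWAT DMSO cells. Of 13 tested genes with symbols starting Eif4, a group taken after values were seen, 8 had a higher and 3 a lower interaction. The shares over all tested genes were 19.7% higher and 12.6% lower. Eif4g2 alone of these 4 kept both calls in all omissions. Eif4e and Eif4b lost the iWAT call without any of the 6 iWAT libraries (limma adjusted p up to 0.144 and 0.129), and Eif4a1 without any except iWAT DEP 1 (limma adjusted p up to 0.0982).

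The reverse class, down in AML12 and up in iWAT, held genes of the ATF4 stress response. Of 26 tested ATF4 targets and amino acid supply genes, 17 had a lower and 2 a higher interaction, against 12.6% and 19.7% over all tested genes. In AML12, 17 fell and 3 rose, against 15.0% and 25.1% of all tested genes. In iWAT 9 rose and none fell, against 4.40% and 3.90%. Atf3, Trib3, Ppp1r15a, Slc3a2, Slc7a5, Chac1 and Aars were opposite, and the median log2 fold change was -0.17 in AML12 and 0.06 in iWAT.

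Ppp1r15a, also called GADD34, is the phosphatase subunit that removes phosphate from eIF2 alpha and closes the stress response. It had 4.9, 4.63 and 5.47 FPKM in AML12 DEP libraries, against 11.3, 10.7 and 10.4 FPKM in AML12 DMSO libraries. The iWAT counterpart was 82.7, 82.6 and 83.3 FPKM in iWAT DEP libraries, against 71.3, 69.6 and 69.8 FPKM in iWAT DMSO libraries. DEP libraries lay below every DMSO library in AML12 and above every DMSO library in iWAT. Log2 fold changes were -0.98 ± 0.06 and 0.24 ± 0.02, with an interaction of -1.21 ± 0.06 (limma adjusted p = 2.77e-07).

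Atf3, a transcription factor induced by many stresses, had 6.12, 5.86 and 5.53 FPKM in AML12 DEP libraries, against 7.36, 7.3 and 7.77 FPKM in AML12 DMSO libraries. In the iWAT line there were 23.3, 20.4 and 21.7 FPKM in iWAT DEP libraries, against 17.8, 16.8 and 16.2 FPKM in iWAT DMSO libraries. The change was of similar size in both lines, -0.31 ± 0.04 in AML12 and 0.34 ± 0.05 in iWAT, and the interaction was -0.65 ± 0.07 (limma adjusted p = 5.64e-05). Trib3, a pseudokinase induced by ATF4, averaged 28.4 ± 0.316 FPKM in AML12 DEP cells and 49.3 ± 1.0 FPKM in AML12 DMSO cells and 118 ± 2.91 FPKM in iWAT DEP cells and 107 ± 2.8 FPKM in iWAT DMSO cells, with an interaction of -0.91 ± 0.04 (limma adjusted p = 4.95e-08).

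The amino acid exchanger chains Slc3a2 and Slc7a5, which pair at the cell surface to import large neutral amino acids, had interactions of -0.51 and -0.23. Chac1, a glutathione-degrading enzyme, and Aars, the alanyl-tRNA synthetase, had interactions of -0.26 and -0.27. Slc1a4, a neutral amino acid transporter outside the list and picked out after its values were seen, had 26.8, 26.8 and 26.2 FPKM in AML12 DEP libraries, against 39.2, 38.8 and 38.6 FPKM in AML12 DMSO libraries. iWAT cells gave 38.4, 37.6 and 39.6 FPKM in iWAT DEP libraries, against 33, 34 and 34 FPKM in iWAT DMSO libraries. The directions were those of the listed transporters, without overlap, and the interaction was -0.72 ± 0.03 (limma adjusted p = 1.1e-07).

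Ddit3, the gene of the proapoptotic factor CHOP, had the lowest interaction of the list and was not opposite by the calls. It had 5.28, 4.8 and 5.09 FPKM in AML12 DEP libraries, against 14.6, 15.7 and 15.5 FPKM in AML12 DMSO libraries. Levels in iWAT were 95.3, 94.9 and 89.5 FPKM in iWAT DEP libraries, against 82, 85.1 and 87.6 FPKM in iWAT DMSO libraries. DEP lowered it in AML12 by 1.43 on the log2 scale (limma adjusted p = 6.65e-06), while the iWAT difference of 0.13 ± 0.03 did not pass (limma adjusted p = 0.0595). The interaction was -1.56 ± 0.06 (limma adjusted p = 4.02e-08).

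The opposite ATF4 genes numbered 3, 3 or 6 without iWAT DEP 1, 2 or 3, 4, 3 or 2 without iWAT DMSO 1, 2 or 3, and 6 or 7 without single AML12 libraries. These totals can include list members that were not opposite with all libraries. Ppp1r15a and Atf3 kept both calls throughout, Atf3 with an iWAT adjusted p up to 0.0482 by limma. Trib3 lost its iWAT call without iWAT DEP 1 or 2 or iWAT DMSO 2 or 3 (limma adjusted p up to 0.0915). Slc3a2 and Slc7a5 lost it without any of the 6 iWAT libraries (limma adjusted p up to 0.122 and 0.103), and Aars without any except iWAT DEP 3 (limma adjusted p up to 0.0751). Chac1 lost a call without AML12 DEP 1 or 3, AML12 DMSO 2 or 3 or iWAT DMSO 3 (limma adjusted p up to 0.125).

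The promoters of Trib3, Atf3 and Chac1 are shown for the ATF4 element (TGATGNAA, on either strand), whose match lies on the opposite strand in all 3, so that the capitals are its reverse complement (RefSeq, GRCm38.p6; Trib3 chr2:152344011-152344310, minus strand; Atf3 chr1:191183284-191183583, minus strand; Chac1 chr2:119350992-119351291, plus strand; each read along the gene's strand).
Trib3: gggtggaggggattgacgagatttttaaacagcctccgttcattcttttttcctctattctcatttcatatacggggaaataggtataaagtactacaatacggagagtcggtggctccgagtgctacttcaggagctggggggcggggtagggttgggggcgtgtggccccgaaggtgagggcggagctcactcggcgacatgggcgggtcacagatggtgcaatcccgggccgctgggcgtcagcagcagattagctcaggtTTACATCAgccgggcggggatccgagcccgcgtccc
Atf3: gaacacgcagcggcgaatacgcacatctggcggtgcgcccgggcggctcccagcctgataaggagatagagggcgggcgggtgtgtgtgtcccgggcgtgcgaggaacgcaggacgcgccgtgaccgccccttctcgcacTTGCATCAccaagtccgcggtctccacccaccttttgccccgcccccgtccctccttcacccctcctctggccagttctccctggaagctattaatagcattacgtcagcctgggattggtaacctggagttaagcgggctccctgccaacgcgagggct
Chac1: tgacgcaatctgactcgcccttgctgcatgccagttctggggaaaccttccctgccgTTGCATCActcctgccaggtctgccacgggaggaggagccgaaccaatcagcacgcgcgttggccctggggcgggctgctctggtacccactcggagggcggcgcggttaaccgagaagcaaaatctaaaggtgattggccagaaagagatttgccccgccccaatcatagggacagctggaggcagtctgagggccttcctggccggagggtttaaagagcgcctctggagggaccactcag
The element was in 4 of the 6 promoters of opposite ATF4 genes (66.7%), in 38.5% of the 26 promoters of the list and in 2.12% of all 10190. Over whole classes, 7.22% of promoters of genes up in AML12 and down in iWAT held it, against 8.75% of promoters of the reverse class.

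Growth arrest and damage genes partly followed. Of 23 tested p53 targets, 11 had a lower and 2 a higher interaction, against 12.6% and 19.7% of all tested genes. In AML12 9 rose and 3 fell, against 25.1% and 15.0%. In iWAT 18 rose and none fell, against 4.40% and 3.90%. The list's median log2 fold change was 0.10 in AML12 and 0.24 in iWAT. The count of 2 higher was 0 or 1 under several alternatives. The opposite members were Gdf15, Trp53inp1 and Ephx1. Gdf15, a secreted stress cytokine, had 5.82, 5.84 and 5.0 FPKM in AML12 DEP libraries, against 8.7, 9.04 and 9.24 FPKM in AML12 DMSO libraries. In iWAT it had 69, 70.5 and 66.8 FPKM in iWAT DEP libraries, against 60.6, 55.5 and 56.6 FPKM in iWAT DMSO libraries. The iWAT values, scaled separately, were many times those of AML12 in both groups. The log2 fold changes were -0.61 ± 0.06 in AML12 and 0.25 ± 0.04 in iWAT, with an interaction of -0.86 ± 0.07 (limma adjusted p = 7.77e-06).

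Trp53inp1, a p53-induced nuclear protein, had 17.4, 17.3 and 17.4 FPKM in AML12 DEP libraries, against 19, 19.4 and 19.8 FPKM in AML12 DMSO libraries. In the iWAT line there were 15.5, 16.3 and 17.2 FPKM in iWAT DEP libraries, against 12.2, 11.4 and 12.4 FPKM in iWAT DMSO libraries. It fell by less in AML12 (-0.15 ± 0.02) than it rose in iWAT (0.42 ± 0.05), and the interaction was -0.57 ± 0.05 (limma adjusted p = 1.98e-05). Ephx1, the microsomal epoxide hydrolase, averaged 93.1 ± 0.993 FPKM in AML12 DEP cells and 159 ± 1.27 FPKM in AML12 DMSO cells and 36.3 ± 1.14 FPKM in iWAT DEP cells and 33.1 ± 0.606 FPKM in iWAT DMSO cells, with an interaction of -0.89 ± 0.03 (limma adjusted p = 4.02e-08). Its iWAT call was lost without any iWAT library except iWAT DEP 3 (limma adjusted p up to 0.114). Gadd45a, a growth arrest gene outside the list and picked out after its values were seen, averaged 19.9 ± 1.1 FPKM in AML12 DEP cells and 36 ± 0.96 FPKM in AML12 DMSO cells and 59.6 ± 0.728 FPKM in iWAT DEP cells and 54.8 ± 0.376 FPKM in iWAT DMSO cells, with an interaction of -0.94 ± 0.05 (limma adjusted p = 2.62e-07).

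Lysosomal genes mostly had a lower interaction. Of 27 tested genes of the lysosome and autophagy, 18 had a lower and none a higher one (1 without AML12 DEP 1). Over all tested genes 12.6% were lower and 19.7% higher. In AML12 19 fell and none rose, against 15.0% and 25.1% of all tested genes. In iWAT 5 rose and 3 fell, against 4.40% and 3.90%. Atp6v0d1, Atp6v1h, Npc1 and Sqstm1 were opposite. Atp6v0d1, a subunit of the membrane sector of the vacuolar ATPase, had 37.2, 35.8 and 37.2 FPKM in AML12 DEP libraries, against 42.5, 43 and 40.6 FPKM in AML12 DMSO libraries. The iWAT counterpart was 128, 130.2 and 131 FPKM in iWAT DEP libraries, against 118, 113 and 114 FPKM in iWAT DMSO libraries. The groups were apart in both lines by similar amounts, -0.19 ± 0.03 in AML12 and 0.17 ± 0.02 in iWAT, with an interaction of -0.36 ± 0.04 (limma adjusted p = 2.52e-05).

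The other subunits of the pump followed in part. Of 17 tested vacuolar ATPase genes, taken by symbol after values were seen, 13 had a lower and none a higher interaction. The shares over all tested genes were 12.6% lower and 19.7% higher. Atp6ap1, Atp6v0b, Atp6v1c1 and Atp6v1h were opposite beside Atp6v0d1. Median log2 fold changes were -0.12 in AML12 and 0.07 in iWAT, against 0.03 and 0.01 over all tested genes. Atp6v0b averaged 26.9 ± 1.11 FPKM in AML12 DEP cells and 34.3 ± 0.474 FPKM in AML12 DMSO cells and 105 ± 1.34 FPKM in iWAT DEP cells and 93.1 ± 3.12 FPKM in iWAT DMSO cells, with an interaction of -0.51 ± 0.04 (limma adjusted p = 1.06e-05). It lost its iWAT call without iWAT DMSO 3 (limma adjusted p = 0.053). Of the 5, 3 kept both calls without iWAT DEP 2, iWAT DEP 3 or iWAT DMSO 1, 2 kept them without iWAT DMSO 2, and only Atp6v0d1 kept them without iWAT DMSO 3.

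Sqstm1, the autophagy receptor p62, averaged 143 ± 1.04 FPKM in AML12 DEP cells and 197 ± 0.892 FPKM in AML12 DMSO cells and 425 ± 3.6 FPKM in iWAT DEP cells and 397 ± 5.09 FPKM in iWAT DMSO cells, with an interaction of -0.55 ± 0.02 (limma adjusted p = 5.37e-08). Npc1, the lysosomal cholesterol exporter, had log2 fold changes of -0.16 ± 0.04 and 0.12 ± 0.03 and an interaction of -0.28 ± 0.04 (limma adjusted p = 0.000468). Npc1 thus took the direction opposite to the 8 opposite genes of the cholesterol list in both lines. Mvd of that list rose in iWAT, as Npc1 did. The opposite lysosomal genes numbered 2, 1 or 1 without iWAT DEP 1, 2 or 3 and 2, 1 or 1 without iWAT DMSO 1, 2 or 3, and 3 or 4 without single AML12 libraries. Only Atp6v0d1 of the 4 kept both calls. Sqstm1 lost its iWAT call without iWAT DEP 2 or 3 or iWAT DMSO 2 or 3 (limma adjusted p up to 0.0852), and Npc1 lost it without any iWAT library (limma adjusted p up to 0.113) and its AML12 call without AML12 DMSO 3 (limma adjusted p = 0.0503).

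**Figure D4:**
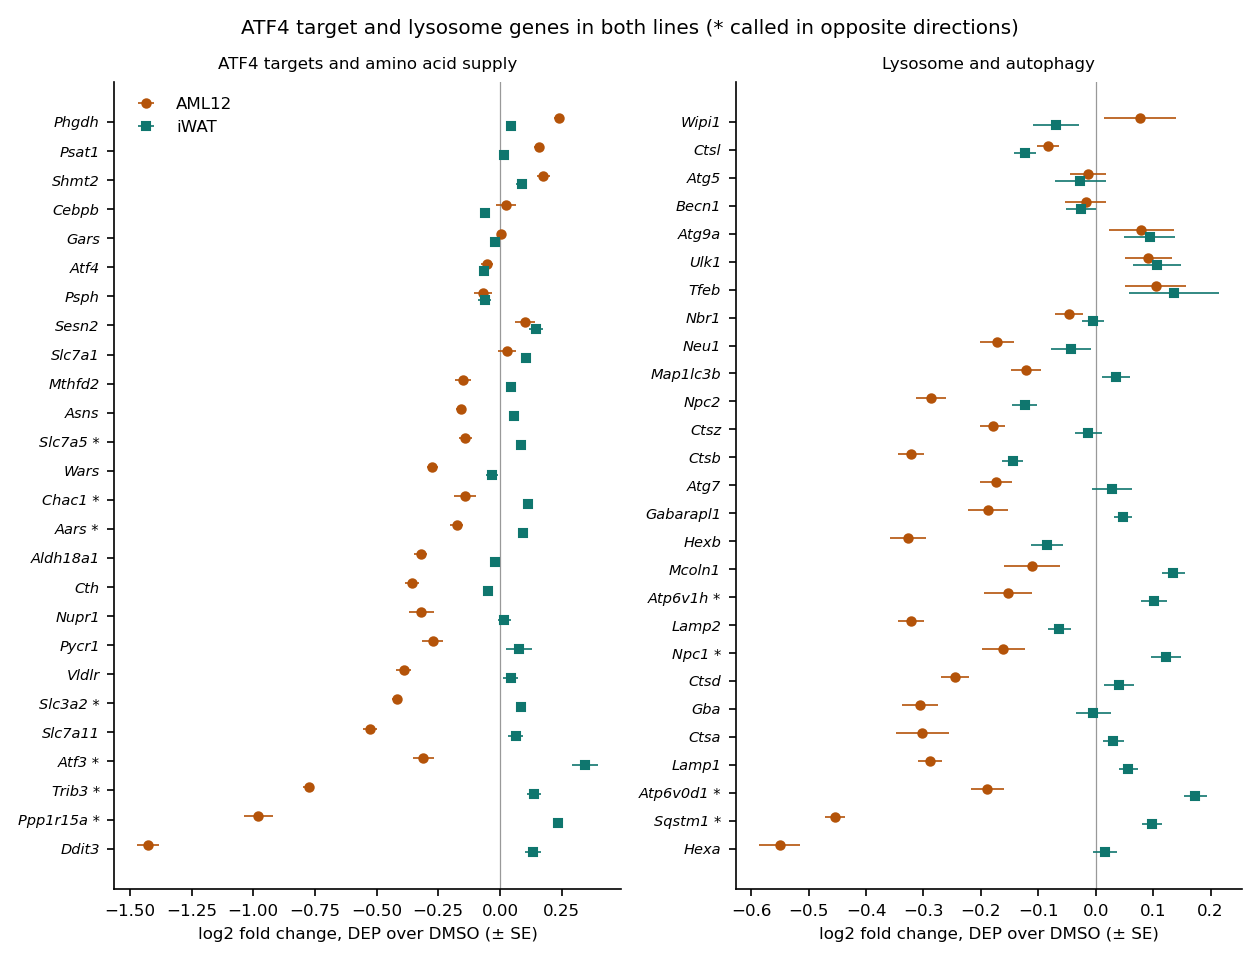
Log2 fold changes of FPKM + 1 with DEP (x axes, ± SE) in AML12 and iWAT for every tested gene of the ATF4 list (26) and of the lysosome and autophagy list (27), one gene per row, with * for opposite genes. Most AML12 points lie left of 0, with Ddit3 lowest at -1.43, and the iWAT points of the 7 and 4 marked genes lie right of 0.

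Other stress and metabolic lists held 1 or 2 opposite genes. Of 21 tested NRF2 targets and glutathione genes, 16 had a lower and 2 a higher interaction, against 12.6% and 19.7% of all tested genes. In AML12 17 fell and 2 rose, against 15.0% and 25.1%. Hmox1 and Ephx1, which is also among the p53 targets, were opposite. Hmox1, the haem-degrading oxygenase, had 34.4, 37.1 and 35.2 FPKM in AML12 DEP libraries, against 39.7, 42 and 42.7 FPKM in AML12 DMSO libraries. Hmox1 levels in iWAT were 225, 229 and 232 FPKM in iWAT DEP libraries, against 209, 204 and 203 FPKM in iWAT DMSO libraries. DEP was lower in AML12 and higher in iWAT without overlap, and the interaction was -0.37 ± 0.05 (limma adjusted p = 0.000117). Of 26 tested glycolysis and hypoxia genes, 18 had a lower and 3 a higher interaction, against 12.6% and 19.7% of all tested genes. In AML12 19 fell, against 15.0%. In iWAT 2 rose and 2 fell, against 4.40% and 3.90%.

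Ndrg1, a hypoxia-induced gene, was the one opposite member of that list and among the strongest in the class. It had 18.8, 18.6 and 18.2 FPKM in AML12 DEP libraries, against 35, 34.8 and 35.3 FPKM in AML12 DMSO libraries. iWAT cells gave 18.6, 19.1 and 17.7 FPKM in iWAT DEP libraries, against 15, 15.6 and 15.1 FPKM in iWAT DMSO libraries. The DEP values of the 2 lines, scaled separately, overlapped, whereas with DMSO the AML12 values were the higher. The log2 fold changes were -0.88 ± 0.02 in AML12 and 0.27 ± 0.03 in iWAT, with an interaction of -1.15 ± 0.04 (limma adjusted p = 3.78e-08).

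Of 14 tested circadian clock genes, 9 had a lower and 2 a higher interaction, against 12.6% and 19.7% of all tested genes. Nr1d1, which encodes the clock repressor REV-ERB alpha, had 8.66, 9.2 and 9.07 FPKM in AML12 DEP libraries, against 12, 11.8 and 11.1 FPKM in AML12 DMSO libraries. Levels in iWAT were 14.8, 14.2 and 14 FPKM in iWAT DEP libraries, against 12.2, 11.7 and 11 FPKM in iWAT DMSO libraries. The DMSO means of the 2 lines, scaled separately, were both 11.6 FPKM, and DEP libraries lay below them in AML12 and above them in iWAT. The interaction was -0.62 ± 0.06 (limma adjusted p = 1.98e-05). Tef, a clock-controlled transcription factor, had log2 fold changes of -0.12 ± 0.03 and 0.12 ± 0.02 and an interaction of -0.25 ± 0.04 (limma adjusted p = 0.000462). Nr1d1 kept both calls, and Tef lost a call without AML12 DEP 3 or any iWAT library except iWAT DEP 1 (limma adjusted p up to 0.0993).

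Several genes outside these lists had large opposed changes. Cd68, a lysosomal membrane glycoprotein best known as a macrophage marker, had 4.18, 4.3 and 4.55 FPKM in AML12 DEP libraries, against 12, 10.9 and 10.4 FPKM in AML12 DMSO libraries. In iWAT it had 13.4, 13.7 and 13.1 FPKM in iWAT DEP libraries, against 11.7, 10.5 and 10.6 FPKM in iWAT DMSO libraries. Of the other leukocyte markers, 4 were near 0 in AML12, and in iWAT Cd79a was near 0 and 3 were not listed. DEP lowered Cd68 in AML12 and raised it in iWAT, with an interaction of -1.45 ± 0.07 (limma adjusted p = 2.26e-07). Its iWAT call was lost without iWAT DEP 2 or iWAT DMSO 3 (limma adjusted p up to 0.0534).

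Cdsn, the adhesion protein corneodesmosin, had 8.64, 8.72 and 9.94 FPKM in AML12 DEP libraries, against 18.3, 21.1 and 19.1 FPKM in AML12 DMSO libraries. In the iWAT line there were 84.4, 83.6 and 82.6 FPKM in iWAT DEP libraries, against 70.5, 69.3 and 68 FPKM in iWAT DMSO libraries. Both lines separated fully, with log2 fold changes of -1.02 ± 0.07 and 0.27 ± 0.02 and an interaction of -1.29 ± 0.08 (limma adjusted p = 6.37e-07). Adh7, an alcohol dehydrogenase that also oxidizes retinol, averaged 22.4 ± 0.698 FPKM in AML12 DEP cells and 47.1 ± 1.18 FPKM in AML12 DMSO cells and 9.35 ± 0.427 FPKM in iWAT DEP cells and 7.99 ± 0.0613 FPKM in iWAT DMSO cells, with an interaction of -1.24 ± 0.05 (limma adjusted p = 4.28e-08). Itgb7, an integrin beta chain, averaged 17.9 ± 0.152 FPKM in AML12 DEP cells and 28.8 ± 0.85 FPKM in AML12 DMSO cells and 6.85 ± 0.256 FPKM in iWAT DEP cells and 5.52 ± 0.34 FPKM in iWAT DMSO cells, with an interaction of -0.93 ± 0.05 (limma adjusted p = 7.1e-07). Pvr, the poliovirus receptor and a nectin-like adhesion protein, averaged 7.73 ± 0.40 FPKM in AML12 DEP cells and 9.84 ± 0.538 FPKM in AML12 DMSO cells and 27 ± 0.859 FPKM in iWAT DEP cells and 21.8 ± 0.497 FPKM in iWAT DMSO cells, with an interaction of -0.61 ± 0.06 (limma adjusted p = 2.95e-05).

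Grasp, a scaffold protein also called tamalin, Kdm6b, a histone H3 lysine demethylase, and Hyou1, a chaperone of the endoplasmic reticulum, had interactions of -0.83 ± 0.09, -0.49 ± 0.07 and -0.34 ± 0.04. Cdsn and Pvr kept both calls in all omissions. The iWAT call was lost for Adh7 without any iWAT library except iWAT DEP 2, for Kdm6b without any except iWAT DEP 1 and for Hyou1 without any of the 6 (limma adjusted p up to 0.0712, 0.103 and 0.128). Itgb7 lost it without iWAT DEP 2 or 3 or iWAT DMSO 1 or 2, and Grasp without iWAT DEP 1, 2 or 3 or iWAT DMSO 3 (limma adjusted p up to 0.0696 and 0.0954).

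Some lists held no opposite gene, where 1.81% of all tested genes would be under 1 gene. None of 40 ribosomal protein genes was opposite: 26 fell in AML12 and none was called in iWAT, and 19 had a lower interaction, or 32 without AML12 DEP 1. None of 22 proteasome genes was opposite, with 13 higher in the interaction and 13 up in AML12, and none of 24 MYC targets and ribosome biogenesis genes, with 12 higher and 20 up in AML12. In iWAT, 5 of the MYC targets rose and none fell. The shares over all tested genes were 19.7% higher and 12.6% lower in the interaction. They were 25.1% up and 15.0% down in AML12, and 4.40% up and 3.90% down in iWAT. In all, 58 of the 206 opposite genes belonged to one of the gene lists and 148 to none.

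**Figure D5:**
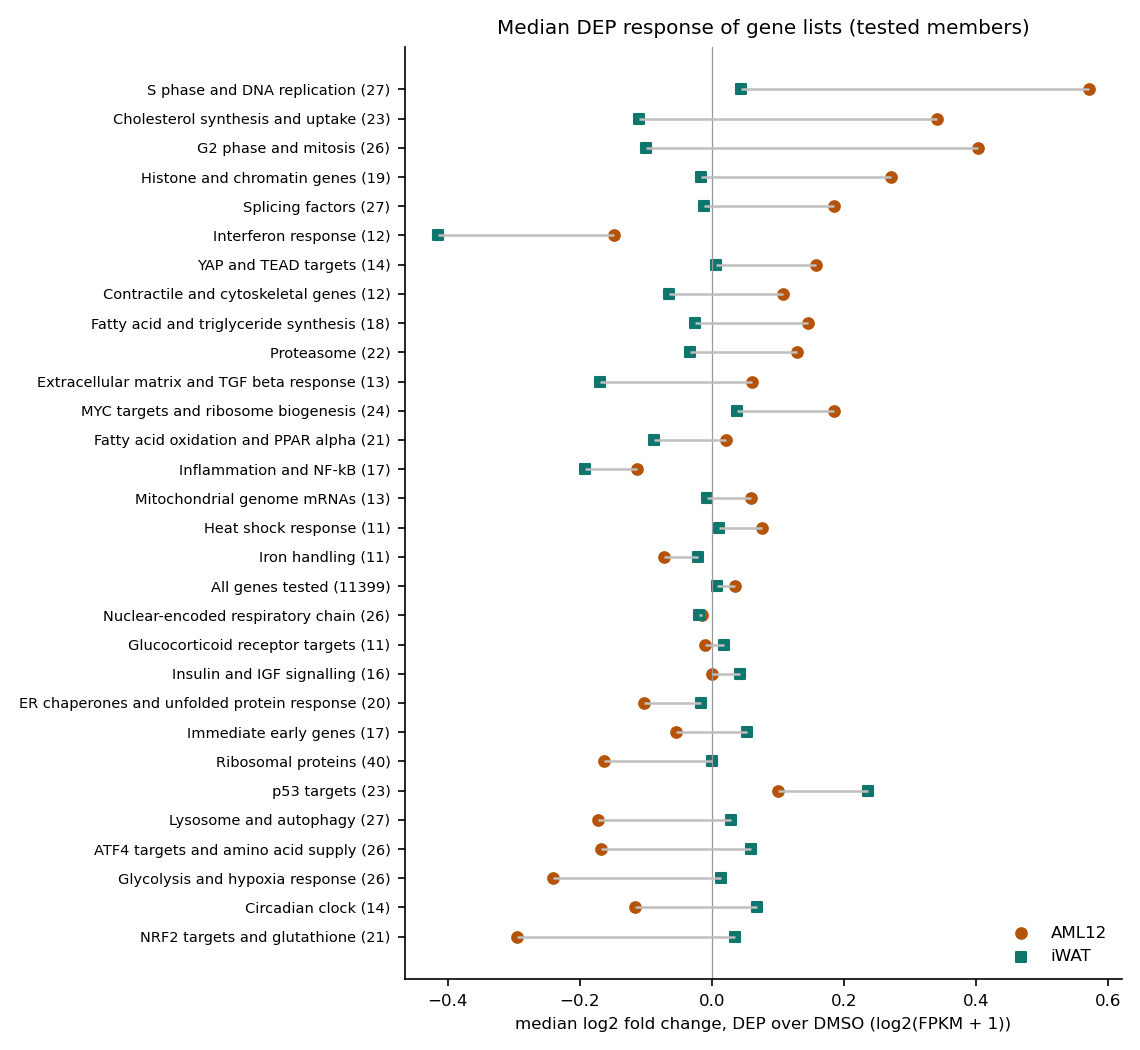
Median log2 fold change of FPKM + 1 with DEP (x axis) in AML12 and in iWAT for gene lists, one list per row, ordered by the median interaction, with the row of all tested genes for comparison. Lists with 7 or fewer tested members are not shown. Cholesterol synthesis (0.34 in AML12, -0.11 in iWAT) and mitosis (0.40 and -0.10) lie right of 0 in AML12 and left of 0 in iWAT, and the ATF4 list (-0.17 and 0.06) has the reverse order.

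Opposite genes were expressed above the usual level, as were the 105 genes called in the interaction and in both lines with the same sign. Those 105 had medians of 23.5 FPKM in AML12 and 31.7 FPKM in iWAT, so the trait was not particular to opposite genes. The median level was 25.5 FPKM in AML12 and 23.9 FPKM in iWAT for genes up in AML12 and down in iWAT, and 20.3 and 23.1 FPKM for the reverse class, against 7.59 and 8.90 FPKM over all tested genes. Protein-coding genes made up 94.8% and 96.7% of the 2 classes, against 85.0% of all tested genes. Median exon length was 4085.5 and 3362 bases, against 4073 bases. The part of read number in these calls was not tested. Of the 206, 5 genes had a library below 0.5 FPKM, such as Steap4, and none of these was well expressed. Idi1 lay just inside the level taken as well expressed, with 5.24 FPKM in the lower of its lines, and Fkbp3 and Agap1 lay just outside, with 4.81 and 4.79 FPKM.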

How the data were processed

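RNA sequencing libraries of 12 samples were analysed. Per the submitters' processing notes, trimming used Trimmomatic and alignment to GRCm39 used HISAT2, and per the labels' protocols the libraries were stranded total RNA from samples past a quality minimum. Versions, the counting tool and its annotation are not given in the sources used here. The authors deposited FPKM per gene, 1 table per line, normalized separately. The tables were joined by Ensembl identifier (24255 genes in both). Symbols and exon lengths came from GENCODE M21 (GRCm38), which is another build, so no gene coordinates are given.

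The test took genes reaching 0.5 FPKM in 3 or more libraries of each line. It was limma on log2(FPKM + 1) with moderation that follows the mean level: a joint fit of 12 libraries for the interaction, with Benjamini-Hochberg adjustment over 11399 genes, and a fit per line for its own calls. Fold changes on this scale understate changes of genes near 1 FPKM. Whole reads were recovered from FPKM steps for 99.99% of genes within a tolerance of 0.001, 89.4% of them at the annotated length in AML12. They gave library totals, so that 1 read in a 1-kb gene was worth 0.0183 to 0.0233 FPKM, and the voom and thinned alternatives. Whether 1 such unit is a read or a read pair is not stated. Depth limits and intervals of this kind cover counting error only. Replicate numbers did not pair libraries (correlations of same-numbered deviations -0.0728 to 0.0278), and no 2 libraries were duplicates.

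Opposite genes were those called in the interaction and in both lines with opposite signs. Named genes had a mean of at least 5 FPKM in each line. They were the 5 highest and 5 lowest interactions, opposite or not, and, among opposite genes without overlap in either line, the 10 of each class with the largest smaller change and up to 2 per list. Others named were chosen after their values were seen, or as list members. The members and the gene lists were chosen with earlier results of these data known. From the cholesterol list 2 genes are not reported here and are in none of its counts. The motifs were searched in RefSeq promoters (GRCm38.p6). The fits were tested on simulated data. Settings tried beside the main ones were pseudocounts, low-level filters, scalings, thresholds, voom, a joint fit for the within-line calls, a replicate block and omission of each library. R 4.3.3, limma 3.58.1, Python 3.11.15, numpy 2.4.6, pandas 2.3.3 and matplotlib 3.10.9 were used.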

Additional observations from a re-analysis of the deposited data

Results flagged for a closer look

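The change with DEP differed between AML12 and iWAT, by the interaction test in limma, for each of 46 named genes, given here as AML12 minus iWAT on the log2 scale. Their change was higher in AML12 for 26. The 9 highest were Ccl2 (1.30), Ccl7 (1.24), Prl2c2 (1.16), Tuba1a (0.98), Ccne1 (0.94), Idi1 (0.79), Plk1 (0.78), Hmgcs1 (0.78) and Plau (0.77). Then came Irgm1 (0.75), Rrm2 (0.74), Bub1 (0.73), Fads2 (0.72), Sparc (0.70), Scd2 (0.65), Inhba (0.62), Msmo1 (0.61) and Thbs1 (0.58). The smallest of this sign were Ankrd1 (0.58), Hmgb2 (0.57), Plin2 (0.49), Hnrnpa2b1 (0.37), Amotl2 (0.31), Srsf7 (0.30), Cald1 (0.30) and Actb (0.25). Their change was lower in AML12 for 20. The lowest were Ddit3 (-1.56), Cd68 (-1.45), Cdsn (-1.29), Adh7 (-1.24), Ppp1r15a (-1.21), Ndrg1 (-1.15), Itgb7 (-0.93), Ephx1 (-0.89), Gdf15 (-0.86) and Grasp (-0.83). The others were Atf3 (-0.65), Nr1d1 (-0.62), Pvr (-0.61), Trp53inp1 (-0.57), Kdm6b (-0.49), Hmox1 (-0.37), Atp6v0d1 (-0.36), Hyou1 (-0.34), Npc1 (-0.28) and Tef (-0.25). All but Tuba1a and Ddit3 had called changes of opposite sign in the 2 lines.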

How the results depend on the processing

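Across 12 omissions of single libraries, calls in the interaction numbered 3284 to 3539, against 3679 with all. Opposite genes numbered 81 to 195 (main count 206), those up in AML12 and down in iWAT 47 to 109 (116) and the reverse 34 to 86 (90), and among well-expressed genes 41 to 95 (96) and 30 to 78 (82). Of the original opposite genes, 46 to 104 of the 116 and 30 to 84 of the 90 kept their class. With an adjusted p below 0.01 there were 2317 interaction calls (1448 higher, 869 lower) and 44 opposite genes (24 and 20, well expressed 21 and 18). Without a filter on low values there were 107 (65 and 42, well expressed 60 and 38), with moderation that ignores the mean level 92 (52 and 40, well expressed 40 and 32), and with voom on recovered reads 412 (224 and 188, well expressed 177 and 158). At a level of 20 FPKM for well expressed, 53 and 32 remained of the genes in each direction. With the replicate block, which the numbers did not call for, there were 80 opposite genes (39 and 41, well expressed 35 and 34) and 3116 interaction calls. The causes were not tested, other than that a stricter threshold or level keeps fewer genes. Centring on the library median gave 1883 higher and 1732 lower interactions, 52.1% higher against 61.0% before. All 46 named genes kept the sign and call of the interaction under every alternative that tested them, and 20 of the 44 named opposite genes kept their class under all 26. The fewest were Hyou1 (14 of 26), Bub1 (15), Npc1 (16) and Ephx1 (16).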
